A study of Mus musculus with 12 samples.

Results

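The mRNAs of the translation initiation factors were examined in mouse peritoneal macrophages given lipopolysaccharide (LPS) or PBS. A gene was taken as a member when its symbol began with Eif1 to Eif6, without the eIF2 kinases (Eif2ak1 to Eif2ak4), the Y-linked Eif2s3y and pseudogene symbols. This gave 50 of the 16920 genes in the tables, and 5 genes were left out by the rule. The 12 libraries fell into 4 groups of 3, with macrophages of wild-type mice kept with PBS (WT PBS) or with 1 µg/mL LPS (WT LPS) for 6 h, and macrophages of mice labelled Ythdf1 knockout kept with PBS (KO PBS) or with the same LPS (KO LPS). The Ythdf1-/- mice had been made with CRISPR/Cas9, lacked the gene in the whole animal by design, and, like the WT mice, were on a C57BL/6 background and 6 to 10 weeks old. All cells had been drawn into the peritoneum of the mouse by an irritant, named as starch broth in the series record and as thioglycollate in the study's methods, and were cultured before treatment. The labels call the replicates independent samples and biological replicates, without saying whether each came from its own mouse, so the p-values below measure only the spread between these libraries.

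Initiation brings a ribosome to the start codon of an mRNA. eIF2 carries the initiator tRNA to the small ribosomal subunit and is recharged with GTP by eIF2B, while eIF1, eIF1A and eIF3 hold the subunit open for scanning. The cap of the mRNA is bound by eIF4E, which joins the scaffold eIF4G and the RNA helicase eIF4A as eIF4F. The 4E-BPs occupy eIF4E when they are not phosphorylated, and mTOR releases them. eIF5 triggers GTP hydrolysis by eIF2 and eIF5B joins the large subunit, which eIF6 keeps apart until then. In macrophages, control of these steps is a known layer of the inflammatory response, and YTHDF1, a reader of N6-methyladenosine in mRNA, is reported to act on translation.

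Ythdf1 itself stood at 43.6, 45 and 41.9 CPM in WT PBS, 212, 198 and 194 in WT LPS, 55.4, 58.1 and 58.1 in KO PBS and 196, 192 and 205 in KO LPS. CPM, the count relative to library size, was computed after the libraries were scaled by the trimmed mean of M values (TMM). The libraries labelled KO did not show a loss of Ythdf1 counts, and under PBS they lay above the WT libraries (log2 fold change 0.40 ± 0.058 SE, adjusted p = 0.000133), whereas under LPS the groups overlapped (-0.028 ± 0.0557 SE, adjusted p = 0.724). A count per gene does not show which part of a transcript was deleted. WT and KO below are therefore the labels of the libraries. Adjusted p-values are from edgeR's quasi-likelihood test with Benjamini-Hochberg adjustment over all genes tested.

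Promoter windows (250 bases before to 50 after a RefSeq start site, GRCm38.p6) were at hand for 38 of the 50 genes, in 50 windows. They are printed for the cap-binding protein gene Eif4e and its scaffold partner Eif4g1, whose printed windows hold the E-box CACGTG. Eif5a2 is shown because its window holds the motif and its mRNA had fewer counts with LPS. With TMM scaling, Eif4ebp2 changed most of the members with LPS. The LPS response of Eif5 differed most between the genotype labels with that scaling, and both genes are shown too. The windows of Eif4ebp2 and Eif5 hold none of the motifs searched. Capitals mark CACGTG, and the sequences read 5′ to 3′ on the strand of the gene.
Eif4e chr3:138527018-138527317 (+): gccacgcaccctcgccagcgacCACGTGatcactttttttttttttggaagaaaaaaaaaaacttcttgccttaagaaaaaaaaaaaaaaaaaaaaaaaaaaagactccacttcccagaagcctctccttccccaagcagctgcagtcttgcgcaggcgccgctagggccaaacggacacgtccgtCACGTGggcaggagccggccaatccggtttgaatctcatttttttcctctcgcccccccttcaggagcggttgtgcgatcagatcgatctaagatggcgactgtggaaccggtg
Eif4g1 chr16:20672477-20672776 (+): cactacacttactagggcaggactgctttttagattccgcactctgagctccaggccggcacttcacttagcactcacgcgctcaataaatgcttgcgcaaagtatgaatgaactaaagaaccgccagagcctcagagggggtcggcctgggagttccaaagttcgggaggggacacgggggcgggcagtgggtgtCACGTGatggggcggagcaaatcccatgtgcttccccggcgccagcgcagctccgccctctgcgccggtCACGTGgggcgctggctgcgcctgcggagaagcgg
Eif5a2 chr3:28781027-28781326 (+): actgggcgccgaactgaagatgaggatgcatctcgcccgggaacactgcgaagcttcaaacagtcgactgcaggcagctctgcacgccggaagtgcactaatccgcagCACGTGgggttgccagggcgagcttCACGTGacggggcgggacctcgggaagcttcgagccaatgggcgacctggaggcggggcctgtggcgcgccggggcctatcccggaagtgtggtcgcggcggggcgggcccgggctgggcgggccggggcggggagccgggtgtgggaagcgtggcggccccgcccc
Eif4ebp2 chr10:61452620-61452919 (-): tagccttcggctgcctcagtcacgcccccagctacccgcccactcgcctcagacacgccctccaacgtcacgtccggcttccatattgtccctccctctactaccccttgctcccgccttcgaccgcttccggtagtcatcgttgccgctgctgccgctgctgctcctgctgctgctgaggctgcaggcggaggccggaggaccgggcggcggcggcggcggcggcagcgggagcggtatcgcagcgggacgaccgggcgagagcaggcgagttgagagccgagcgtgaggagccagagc
Eif5 chr12:111537851-111538150 (+): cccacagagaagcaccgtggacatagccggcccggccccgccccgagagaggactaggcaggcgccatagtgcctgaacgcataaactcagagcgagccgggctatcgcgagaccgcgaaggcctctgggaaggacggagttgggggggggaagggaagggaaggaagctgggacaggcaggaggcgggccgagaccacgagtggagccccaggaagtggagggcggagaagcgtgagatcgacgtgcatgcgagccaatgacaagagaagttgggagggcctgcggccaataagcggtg
Eif4e has another window (chr3:138525941-138526240), which lies at the gene's annotated start and holds none of the motifs. CACGTG, which reads alike on both strands, occurred in 12 of the 50 member windows (24%), against 7.15% of all 32851 windows. These belonged to 10 of the 38 genes, namely Eif1b, Eif3a, Eif3f, Eif3k, Eif4a1, Eif4e, Eif4g1, Eif4h, Eif5a and Eif5a2. Windows of a gene can overlap, as in Eif5a, where the same CACGTG site was counted in more than 1 window. The share of all genes with the motif was not computed. In the Eif4e window printed here the motif began at -228 and -64 from its start site, in Eif4g1 at -54 and 16, and in Eif5a2 at -142 and -117. Genes with the motif were found among those with more and those with fewer counts under LPS. TGACGTCA was in 0 member windows and 1.79% of all windows, TGATGNAA on either strand in 1 (Eif2s3x, 2%) and 3.97%, and the kappaB motif on either strand in 0 and 8.46%. A match is a description of the letters and not of binding.

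Total counts per library lay between 21546274 and 22017005. The values are expected counts, in which reads shared between genes are divided, and 18 of the 50 members carried decimals in some library. Eif1, Eif4e2, Eif4g2, Eif5a and Eif5b carried them in all 12, so their counts, like those of Eif2d, Eif3j1, Eif3j2, Eif3m and Eif4a2, are uncertain by the share of reads that fit other genes. Of the 50 members, 49 passed the filter on low counts, whereas Eif4e1b, the oocyte form of eIF4E, had 0 to 10.09 counts per library and was removed by it. WT LPS replicate 1 stood apart from WT LPS 2 and 3 (mean chi-square per gene 32.7 and 25.5, against 3.08 between 2 and 3). KO LPS 2 and 3 also differed more (16.7) than the other pairs of that group (7.43 and 5.83). Summed macrophage markers (6 of 6 found), most of them Lyz2, were 16840 to 18820 CPM in every library. The means of single ones differed between PBS and LPS (not tested here), Csf1r from 617 to 425 CPM in WT and from 639 to 295 in KO, Adgre1 from 586 to 1125 and from 468 to 1084, and Ptprc from 143 to 448 and from 175 to 757. Summed markers of B cells, T cells, neutrophils, mesothelium and mast cells were at most 6.63 CPM in any library. Among them, mesothelial markers summed to 4.83 to 6.15 CPM in WT and 2.30 to 4.66 in KO, with 4 of 4 above the floor. Of 4 neutrophil markers in the table, Cxcr2 made up most of the sum (means of 1.40 and 2.25 CPM with PBS and 4.12 and 5.36 with LPS), and Mpo was at 0 in both LPS groups. Of 4 mast cell markers only Kit was above the floor (1.10 CPM in WT LPS and 3.22 in KO LPS), and Cpa3, Mcpt4 and Tpsb2 were at 0 in KO LPS. The part of these markers in the results was not tested. Markers of skeletal muscle (5 listed) summed to 17.2 to 22.6 CPM in WT PBS, 28.7 to 33.6 in WT LPS and 0.319 to 19.6 in KO PBS, where replicate 3 was the lowest, with 5 of 5 above the floor of 3 counts in each of these groups. In KO LPS they summed to 0.429 to 0.684, with 2 of 5 above the floor and Myh4 and Tnnt3 at 0.

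The comparison of LPS with PBS asks how the factor mRNAs respond to stimulation. With TMM scaling, most initiation factor mRNAs were higher with LPS than with PBS, but this balance was set by the scaling. In WT cells, 31 of the 49 members tested were higher, against 36.5% of all 12064 genes, 10 were lower, against 40.2%, and 8 did not pass the test at an adjusted p of 0.05. In KO cells, 32 were higher, against 38.8% of genes, and 9 were lower, against 41.1%. The median log2 fold change of the members was 0.33 in WT, against -0.05 for all genes, and 0.46 in KO, against -0.04. Scaled by library totals alone, 4 members were higher and 36 lower in WT, against 18.4% and 68.4% of all genes, and 5 and 31 in KO, against 18.3% and 69.5%. Upper-quartile scaling gave 16 and 17 in WT, against 26.1% and 54.0%, and 22 and 16 in KO, against 27.7% and 54.4%. These settings moved the median of all genes by -0.66 and -0.80 (totals, WT and KO) and by -0.31 and -0.36 (upper quartile). Relative to the median of all genes, the members' median stood at 0.37 in WT under TMM and at 0.37 under totals, and at 0.50 in KO under each. Under bulk sequencing, fewer cells of a type and less RNA per cell cannot be told apart.

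**Figure D1:**
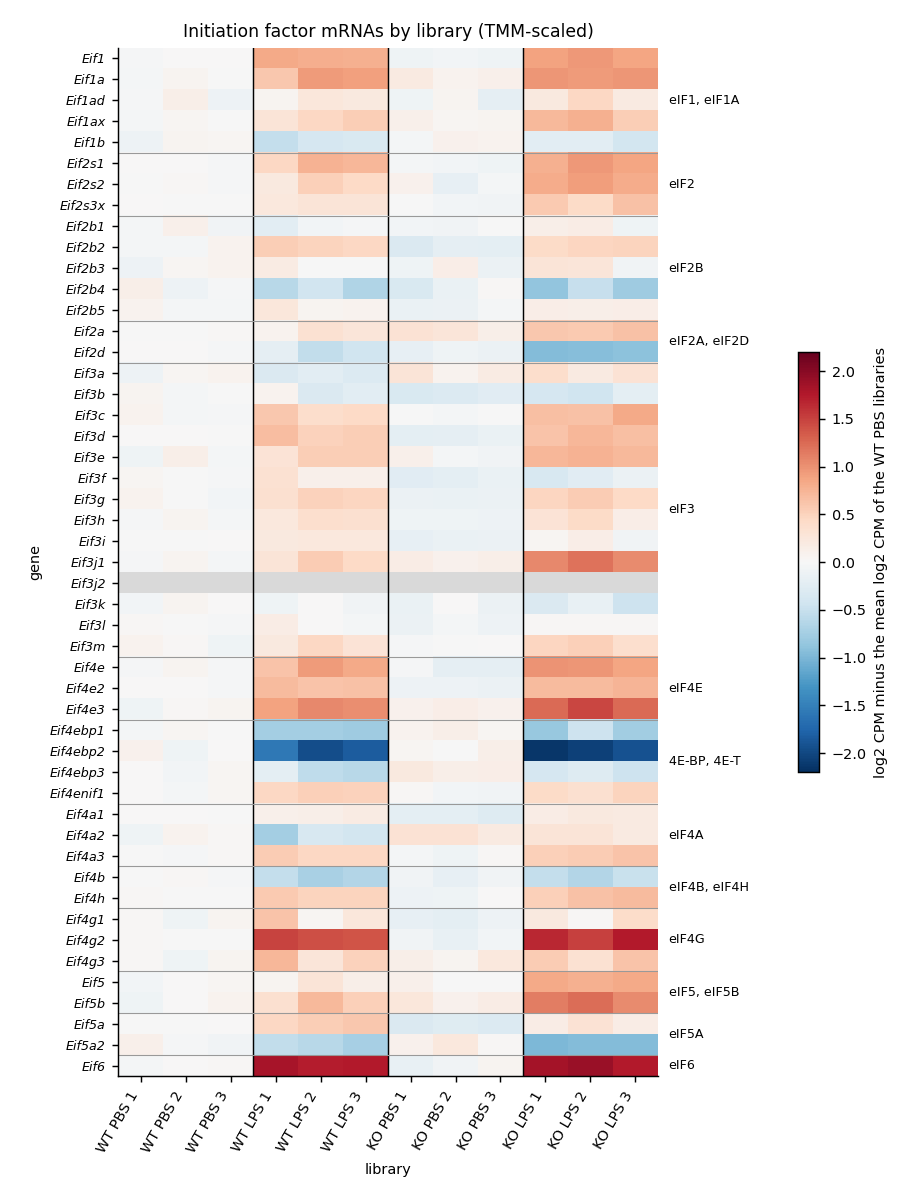
Level of each of the 49 tested members (rows, grouped by complex) in the 12 libraries (columns), as log2 CPM with TMM scaling minus the mean of the WT PBS libraries. Eif6 and Eif4g2 are the darkest red rows and Eif4ebp2 the darkest blue row under LPS, and most of the paler red rows of the LPS columns would be blue under scaling by library totals alone. Eif3j2 is left grey because its counts were 0 to 52.1.

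Totals and the upper quartile lowered the median of all genes, so a rise loses its call more readily than a fall. The share of all genes called alike under all 4 scalings was not computed. The members called in the same direction under these 4 (TMM, RLE, upper quartile and library totals) follow. In WT these were Eif1, Eif4e3, Eif4g2 and Eif6 as higher and Eif1b, Eif2b4, Eif2d, Eif3a, Eif4a2, Eif4b, Eif4ebp1, Eif4ebp2, Eif4ebp3 and Eif5a2 as lower. In KO the higher ones were Eif1, Eif4e, Eif4e3, Eif4g2 and Eif6, and the lower ones Eif1b, Eif2b4, Eif2d, Eif3k, Eif4b, Eif4ebp1, Eif4ebp2, Eif4ebp3 and Eif5a2. Fold changes below are log2 values with TMM scaling, genome positions are those of RefSeq on GRCm38.p6, and the value with library totals is given where it differs in sign.

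**Figure D2:**
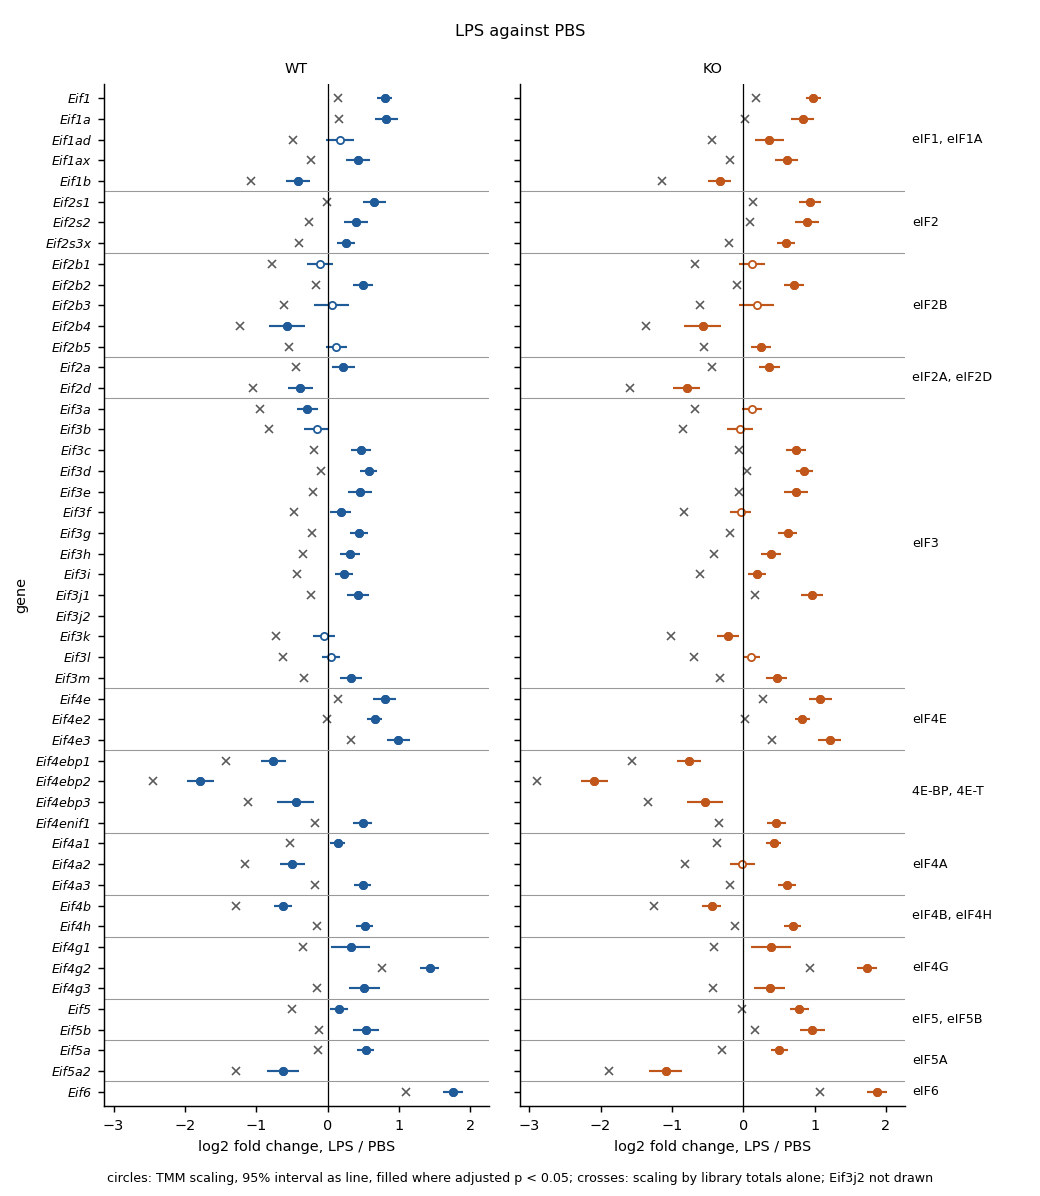
Log2 fold change of LPS against PBS for each tested member in WT (left) and KO (right), with TMM scaling (circles with 95% intervals, filled where the adjusted p was under 0.05) and with library totals alone (crosses). All crosses lie to the left of their circles, and the sign of most eIF3 and eIF4A members, and in WT of the eIF2 genes, Eif5 and Eif5b, depends on the scaling while that of Eif6, Eif4g2 and the 4E-BPs does not.

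The mRNAs of the cap-binding proteins rose with LPS under TMM scaling, though Eif4e2 stood at -0.0027 in WT with totals. Those of the 4E-BPs, which inhibit eIF4E, fell under every scaling. Eif4e, the cap-binding subunit of eIF4F (chromosome 3, 138526191 to 138559696), stood at 71.9, 76.5 and 72 CPM in WT PBS, 114, 140.1 and 130.5 in WT LPS, 72.3, 64.1 and 64.3 in KO PBS and 146, 143 and 134 in KO LPS. All LPS libraries lay above all PBS libraries. The difference was 0.80 ± 0.0758 (SE, adjusted p = 4.62e-08) in WT and 1.08 ± 0.0761 (SE, adjusted p = 8.71e-10) in KO. Eif4e3, a cap-binding homologue (chromosome 6, 99621879 to 99692873), stood at 22.9, 25 and 25.6 CPM in WT PBS, 45.4, 51.1 and 49.8 in WT LPS, 26.1, 27.2 and 26.1 in KO PBS and 58.1, 67.5 and 58.1 in KO LPS. Its LPS libraries were again all above the PBS libraries, with 0.99 ± 0.0745 (SE, adjusted p = 2.3e-09) in WT and 1.21 ± 0.0738 (SE, adjusted p = 1.15e-10) in KO. Eif4e2, which encodes the cap-binding protein 4EHP, was at 53.9, 53.6 and 52.8 CPM in WT PBS, 86.8, 82.7 and 83.9 in WT LPS, 49.5, 49.2 and 49.1 in KO PBS and 86.2, 86.8 and 89.4 in KO LPS. It was higher with LPS by 0.66 ± 0.0515 (SE, adjusted p = 3.73e-09) and 0.83 ± 0.0517 (SE, adjusted p = 1.61e-10), and its value with library totals was -0.0027 in WT and 0.027 in KO, neither of them called. Eif4e in WT kept its sign with library totals but was not called (0.14).

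Eif4ebp2 (chromosome 10, 61428491 to 61452790), a 4E-BP that sequesters eIF4E, had the largest decrease of the members. It stood at 176, 155 and 167 CPM in WT PBS, 55.5, 43 and 46.5 in WT LPS, 171, 164 and 181 in KO PBS and 37.9, 39.9 and 43.8 in KO LPS. The groups did not overlap, and the LPS libraries held 0.291 of the PBS level in WT (-1.78 ± 0.0866 SE, adjusted p = 5.97e-12) and 0.235 in KO (-2.09 ± 0.0882 SE, adjusted p = 7.44e-13). Eif4ebp1, the best-studied mTOR target among the 4E-BPs, was at 47.8, 51.3 and 49.5 CPM in WT PBS, 29.6, 29.4 and 28.7 in WT LPS, 52.1, 54.4 and 51.3 in KO PBS and 27.6, 36.2 and 29.2 in KO LPS. It fell in each genotype label without overlap (-0.76 ± 0.0808 SE, adjusted p = 2.1e-07 in WT and -0.76 ± 0.0808 SE, adjusted p = 1.73e-07 in KO). Eif4ebp3, the least abundant 4E-BP, had 5.03, 4.83 and 5.18 CPM in WT PBS, 4.34, 3.42 and 3.27 in WT LPS, 5.84, 5.51 and 5.53 in KO PBS and 3.87, 4.10 and 3.67 in KO LPS. Here too every LPS library was below every PBS library of the same label (-0.45 ± 0.12 SE, adjusted p = 0.00288 in WT and -0.54 ± 0.119 SE, adjusted p = 0.000582 in KO). Eif4enif1, which encodes the eIF4E carrier 4E-T, went the other way with 0.49 ± 0.0604 (SE, adjusted p = 1.22e-06) and 0.46 ± 0.0609 (SE, adjusted p = 2.46e-06), but had -0.17 and -0.34 with library totals. Counts of Eif4ebp2 and Eif4e in the same library give a ratio that no scaling touches, and it was 2.27 ± 0.217 (SD, n = 3) in WT PBS, 0.384 ± 0.0935 in WT LPS, 2.58 ± 0.226 in KO PBS and 0.288 ± 0.0354 in KO LPS. For Eif4ebp1 to Eif4e the ratios were 0.674 ± 0.0119, 0.230 ± 0.0263, 0.789 ± 0.0652 and 0.220 ± 0.0321. These ratios were chosen after the values were seen and were not tested.

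Among the scaffolds, Eif4g2 stood out. It encodes DAP5, an eIF4G homologue that lacks the eIF4E-binding region and works in cap-independent initiation (chromosome 7, 111067985 to 111083030), and stood at 693, 675 and 682 CPM in WT PBS, 1919, 1835 and 1782 in WT LPS, 651, 612 and 655 in KO PBS and 2163, 1931 and 2299 in KO LPS. LPS libraries were far above PBS libraries, 2.70-fold in WT (1.43 ± 0.0644 SE, adjusted p = 2e-12) and 3.33-fold in KO (1.74 ± 0.065 SE, adjusted p = 1.4e-13). Eif4g1, the main scaffold of eIF4F, was at 321, 296 and 328 CPM in WT PBS, 488, 322 and 373 in WT LPS, 278, 271 and 292 in KO PBS and 364, 320.1 and 418 in KO LPS. The WT groups overlapped in 1 pair of libraries. The differences of 0.33 ± 0.128 (SE, adjusted p = 0.0328) and 0.39 ± 0.128 (SE, adjusted p = 0.0129) turned to -0.34 and -0.41 with library totals. The call was lost without WT PBS 2 or WT LPS 1 (0.14 to 0.28) in WT and without KO LPS 3 (0.29) in KO. Eif4g3 had 85.5, 78.3 and 87.8 CPM in WT PBS, 139.5, 100.4 and 119 in WT LPS, 91.3, 87.4 and 98 in KO PBS and 124, 105 and 129 in KO LPS. It was higher by 0.51 ± 0.102 (SE, adjusted p = 0.000276) and 0.37 ± 0.102 (SE, adjusted p = 0.0036) and turned to -0.15 and -0.43 with totals.

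The helicases and their cofactors did not move together. Eif4a1, the main helicase of eIF4F, was at 812, 815 and 807 CPM in WT PBS, 881, 885 and 918 in WT LPS, 702, 698 and 669 in KO PBS and 910.1, 937 and 935 in KO LPS. LPS libraries lay above PBS libraries, by 0.14 ± 0.0487 (SE, adjusted p = 0.015) in WT and 0.43 ± 0.0488 (SE, adjusted p = 4.46e-07) in KO, though with library totals the values were -0.52 and -0.37 and in WT with the upper quartile -0.17. The WT call was lost without WT PBS 3 or WT LPS 3 (0.12 to 0.13). Its paralog Eif4a2 (chromosome 16, 23107468 to 23114132) stood at 63.9, 72.8 and 69.5 CPM in WT PBS, 41, 53.6 and 52.1 in WT LPS, 85.2, 85.1 and 78.8 in KO PBS and 83.5, 83.9 and 79.1 in KO LPS. In WT it fell with no overlap (-0.49 ± 0.0855 SE, adjusted p = 6.29e-05), and in KO the groups overlapped (-0.015 ± 0.0834 SE, adjusted p = 0.875). In KO it was called lower with totals (-0.82), with the upper quartile (-0.37) and with a GC trend removed (-0.23). Eif4a3, the helicase of the exon junction complex, had 0.49 and 0.61, with -0.17 and -0.19 under totals. The helicase cofactor Eif4b fell (-0.62 ± 0.062 SE, adjusted p = 8.93e-08 and -0.44 ± 0.062 SE, adjusted p = 4.94e-06), while Eif4h, a smaller protein that also aids eIF4A, was higher (0.52 ± 0.0579 SE, adjusted p = 3.65e-07 and 0.69 ± 0.0581 SE, adjusted p = 8.91e-09) except under totals, where it had -0.14 and -0.11.

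The 3 subunit genes of eIF2 were each higher with LPS under TMM in each genotype label, beside 36.5% of all genes in WT and 38.8% in KO. Eif2s2, the beta subunit (chromosome 2, 154871410 to 154892906), stood at 59.2, 61.1 and 58.9 CPM in WT PBS, 69.6, 86 and 80.9 in WT LPS, 63.5, 52.8 and 58 in KO PBS and 105, 113 and 105 in KO LPS. Its LPS libraries were all above the PBS libraries. The difference was 0.40 ± 0.0796 (SE, adjusted p = 0.000234) in WT and 0.89 ± 0.0794 (SE, adjusted p = 1.85e-08) in KO, and its values with totals were -0.26 and 0.091. Eif2s3x, the X-linked gamma subunit, was at 97.9, 96.5 and 96.2 CPM in WT PBS, 113, 118 and 117 in WT LPS, 96.6, 92.8 and 91.7 in KO PBS and 144, 129.8 and 152 in KO LPS. It differed by 0.26 ± 0.0602 (SE, adjusted p = 0.000789) and 0.60 ± 0.0601 (SE, adjusted p = 9.25e-08) without overlap, but by -0.40 and -0.20 with totals and by -0.046 in WT with the upper quartile. Eif2s1, the alpha subunit whose phosphorylation shuts down initiation, had 0.66 ± 0.0749 (SE, adjusted p = 4.95e-07) and 0.94 ± 0.0751 (SE, adjusted p = 4.76e-09), against -0.0036 and 0.13 with totals. Of the 5 genes of eIF2B, the exchange factor of eIF2, 1 was higher and 1 lower in WT, beside 36.5% and 40.2% of all genes. These were Eif2b2 (0.50 in WT and 0.71 in KO, -0.17 and -0.094 with totals) and Eif2b4, which fell in each (-0.57 ± 0.116 SE, adjusted p = 0.000297 in WT and -0.57 ± 0.12 SE, adjusted p = 0.000368 in KO). In KO, Eif2b5, which encodes the catalytic subunit, was higher as well (0.24 ± 0.0677 SE, adjusted p = 0.00339, -0.56 with totals and -0.11 with the upper quartile), and in WT it was called higher without WT PBS 1 (0.19), with RLE (0.17) and with a GC trend removed (0.25) but lower with totals (-0.54) and the upper quartile (-0.19). Eif2b1 and Eif2b3 ranged from -0.11 to 0.19 and did not pass, though Eif2b3 in KO passed without KO LPS 3 (0.30). With totals Eif2b1 (-0.77 and -0.68) and Eif2b3 (-0.61 and -0.61) were called lower in each label, as was Eif2b1 with the upper quartile (-0.42 and -0.23).

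The factors that deliver initiator tRNA without eIF2 went in opposite directions. Eif2d (chromosome 1, 131153172 to 131187659) was at 17, 17.1 and 16.7 CPM in WT PBS, 14.9, 11.7 and 12.5 in WT LPS, 14.9, 15.8 and 15.4 in KO PBS and 8.71, 8.88 and 9.02 in KO LPS. It fell with no overlap (-0.38 ± 0.0821 SE, adjusted p = 0.000493 in WT and -0.79 ± 0.0885 SE, adjusted p = 3.31e-07 in KO). Eif2a, a separate protein in spite of the name of the eIF2 alpha subunit, was at 24.3, 24.3 and 25.1 CPM in WT PBS, 25.8, 30.8 and 29.4 in WT LPS, 30.5, 29.7 and 26.8 in KO PBS and 37.2, 36.7 and 38.3 in KO LPS. It was higher under TMM by 0.22 ± 0.0738 (SE, adjusted p = 0.0115) and 0.37 ± 0.0721 (SE, adjusted p = 0.000191), but had -0.44 and -0.44 with totals and -0.085 in WT with the upper quartile. Its WT call was lost without WT LPS 2 (0.17).

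eIF3 is the largest factor, and its 14 tested genes spread widely, with 9 higher and 1 lower in WT and 8 higher and 1 lower in KO, beside 36.5% and 40.2% of all genes higher and lower in WT and 38.8% and 41.1% in KO. With library totals 12 were lower in WT, against 68.4% of all genes, and 9 in KO, against 69.5%. With the upper quartile 2 were higher and 4 lower in WT and 5 and 6 in KO, against the shares given above for that scaling. Eif3d, which can itself bind a cap (chromosome 15, 77958998 to 77970824), had the largest WT difference of the called eIF3 genes and was at 94.6, 95 and 93.6 CPM in WT PBS, 151, 134 and 137 in WT LPS, 81.7, 82.7 and 85.8 in KO PBS and 146, 157 and 150.2 in KO LPS. No library overlapped, with 0.58 ± 0.0572 (SE, adjusted p = 8.87e-08) in WT and 0.86 ± 0.0575 (SE, adjusted p = 4.29e-10) in KO, and totals gave -0.088 and 0.056. Eif3j1, a gene of the loosely bound subunit at the mRNA entry channel (chromosome 2, 122028580 to 122053632), was at 32.1, 33.8 and 31.8 CPM in WT PBS, 39.6, 48 and 44.2 in WT LPS, 36.6, 35 and 35.7 in KO PBS and 67.6, 74.7 and 66.9 in KO LPS. It differed by 0.43 ± 0.0728 (SE, adjusted p = 4.58e-05) and 0.96 ± 0.0714 (SE, adjusted p = 1.61e-09), or -0.23 and 0.16 with totals. Its near copy Eif3j2 had 0.651, 0.894 and 0.715 CPM in WT PBS, 2.02, 0 and 2.42 in WT LPS, 1.82, 0.702 and 0.815 in KO PBS and 2.21, 1.96 and 0.622 in KO LPS. A gene with so few counts, divided between 2 copies by the counter, cannot be compared here, and the WT difference of 0.97 ± 0.789 (SE, adjusted p = 0.281) was called only without WT LPS 2 (1.56).

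Eif3a (chromosome 19, 60761116 to 60790693), the largest subunit of the core, stood at 126, 139 and 142 CPM in WT PBS, 109, 115 and 110.0 in WT LPS, 164, 143 and 153 in KO PBS and 176, 155 and 169 in KO LPS. In WT every LPS library was below every PBS library (-0.28 ± 0.0688 SE, adjusted p = 0.00127), and in KO the groups overlapped (0.12 ± 0.0682 SE, adjusted p = 0.115), where a call arose without KO LPS 2 (0.17). With totals (-0.68) and the upper quartile (-0.24) it was called lower in KO too. Eif3b, the other large core subunit, did not pass in either (-0.15 ± 0.0848 SE, adjusted p = 0.11 and -0.044 ± 0.0852 SE, adjusted p = 0.645), but in WT it was called without WT LPS 1 (-0.28), and it was called lower in each with the upper quartile (-0.47 and -0.40) and totals (-0.82 and -0.85). The remaining subunits that were higher in each genotype label were Eif3c, Eif3e, Eif3g, Eif3h, Eif3i and Eif3m, with 0.23 to 0.47 in WT and 0.19 to 0.74 in KO, and every one of them was below 0 with totals (-0.43 to -0.19 and -0.61 to -0.059). Eif3i alone of these was below 0 with the upper quartile (-0.079 and -0.16). The KO call of Eif3i was lost without KO LPS 2 (0.13). Eif3f was higher in WT only at 0.19 ± 0.0692 (SE, adjusted p = 0.0211), had -0.036 ± 0.0698 (SE, adjusted p = 0.643) in KO, and stood at -0.48 in WT with totals and -0.12 with the upper quartile. Its WT call was lost without WT PBS 2 or 3 or WT LPS 1 (0.11 to 0.18). Eif3k fell in KO (-0.22 ± 0.0736 SE, adjusted p = 0.0125), a call that was lost without KO PBS 2 or KO LPS 3 (-0.17 to -0.15) and with the GC trend removed (-0.033). In WT it had -0.055 ± 0.0729 (SE, adjusted p = 0.498). With the upper quartile and totals, Eif3k in WT (-0.37 and -0.72) and Eif3f in KO (-0.39 and -0.84) were called lower. Eif3l had 0.047 and 0.11 and did not pass, except in KO without WT LPS 1 (0.11). It was called lower with the upper quartile (-0.26 and -0.24) and totals (-0.62 and -0.69), and higher with the GC trend removed (0.14 and 0.23) and, in KO, with RLE (0.14).

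Eif6 had the largest increase of the members. It encodes the factor that keeps the 60S subunit from joining too early and also acts in ribosome assembly (chromosome 2, 155819837 to 155826925), and stood at 45.2, 47 and 47.2 CPM in WT PBS, 164, 153 and 156 in WT LPS, 41.6, 44.1 and 48.2 in KO PBS and 165, 173 and 155 in KO LPS. Every LPS library was above every PBS library, 3.40-fold in WT (1.76 ± 0.0656 SE, adjusted p = 1.46e-13) and 3.68-fold in KO (1.88 ± 0.0658 SE, adjusted p = 5.66e-14). Scaled by totals it was also higher, by 1.10 and 1.08.

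Eif1, which guards the choice of start codon, was at 181, 184 and 185 CPM in WT PBS, 326, 318 and 317 in WT LPS, 172, 176 and 171 in KO PBS and 337, 355 and 333 in KO LPS. It rose without overlap in each genotype label (0.80 ± 0.0493 SE, adjusted p = 1.45e-10 and 0.98 ± 0.0494 SE, adjusted p = 8.17e-12), under every scaling. Its paralog Eif1b was at 23.2, 26.1 and 25.7 CPM in WT PBS, 17.3, 19.2 and 19.8 in WT LPS, 24.2, 26.7 and 26.5 in KO PBS and 21.3, 21.2 and 18.9 in KO LPS. Against Eif1, it fell (-0.41 ± 0.079 SE, adjusted p = 0.000155 and -0.33 ± 0.0787 SE, adjusted p = 0.000979), also under every scaling, though in KO the call was lost with the GC trend removed (-0.15). Eif1a, one of the genes of eIF1A, which works with eIF1 during scanning, was at 95.8, 102 and 97.7 CPM in WT PBS, 149, 189 and 184 in WT LPS, 113, 104 and 106 in KO PBS and 193, 189 and 193 in KO LPS. It was higher by 0.82 ± 0.0753 (SE, adjusted p = 3.11e-08) and 0.83 ± 0.0751 (SE, adjusted p = 2.27e-08), with 0.16 and 0.03 under totals, neither called. Eif1ax, the X-linked gene of eIF1A, had 23.6, 25.1 and 24.4 CPM in WT PBS, 29.6, 33.3 and 35.6 in WT LPS, 26.2, 25.1 and 25.5 in KO PBS and 39.8, 41.8 and 35.4 in KO LPS. Its differences were 0.43 ± 0.0776 (SE, adjusted p = 9.36e-05) and 0.61 ± 0.0768 (SE, adjusted p = 1.55e-06), or -0.23 and -0.19 with totals. Eif1ad, a protein with an eIF1A-like domain, had 0.17 ± 0.0936 (SE, adjusted p = 0.103) and 0.37 ± 0.0939 (SE, adjusted p = 0.0019), but -0.49 and -0.43 with totals, each called lower. In WT it was called higher without WT PBS 2 or WT LPS 1 (0.23 to 0.24), with RLE (0.22) and with a GC trend removed (0.24).

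Eif5, the GTPase activator of eIF2 (chromosome 12, 111538101 to 111546753), was at 119, 124 and 128 CPM in WT PBS, 129.6, 150.0 and 136 in WT LPS, 133, 123 and 123 in KO PBS and 222, 212 and 221 in KO LPS. In WT the LPS libraries were narrowly above the PBS libraries (0.16 ± 0.0619 SE, adjusted p = 0.0257), a call that was lost without WT PBS 1 or 2 or WT LPS 2 (0.10 to 0.16) and with the GC trend removed (0.073), and in KO they were well above (0.79 ± 0.0618 SE, adjusted p = 3.53e-09), while totals gave -0.50 and -0.014 and the upper quartile -0.15 in WT. Eif5b, the GTPase of subunit joining (chromosome 1, 37998010 to 38055579), was at 67.4, 72.6 and 75.6 CPM in WT PBS, 91.7, 118 and 104 in WT LPS, 85.8, 77 and 80.0 in KO PBS and 157, 169 and 148 in KO LPS. LPS and PBS libraries did not overlap, with 0.54 ± 0.0833 (SE, adjusted p = 1.74e-05) and 0.97 ± 0.0829 (SE, adjusted p = 1.13e-08), or -0.12 and 0.17 with totals. Eif5a, the hypusine-bearing protein that helps elongation and termination, was at 470.0, 467 and 476 CPM in WT PBS, 649, 684 and 714 in WT LPS, 379.6, 392 and 385 in KO PBS and 530.5, 584 and 524 in KO LPS. It was higher by 0.54 ± 0.0565 (SE, adjusted p = 1.9e-07) and 0.50 ± 0.0566 (SE, adjusted p = 3.71e-07), but -0.13 and -0.30 with totals. Eif5a2 (chromosome 3, 28781032 to 28798846), its rare paralog, was at 8.03, 7.30 and 7.08 CPM in WT PBS, 5.15, 4.90 and 4.51 in WT LPS, 7.98, 8.78 and 7.58 in KO PBS and 3.74, 3.86 and 3.86 in KO LPS. It fell with no overlap and under every scaling (-0.62 ± 0.104 SE, adjusted p = 4.02e-05 in WT and -1.09 ± 0.109 SE, adjusted p = 8.89e-08 in KO).

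**Figure D3:**
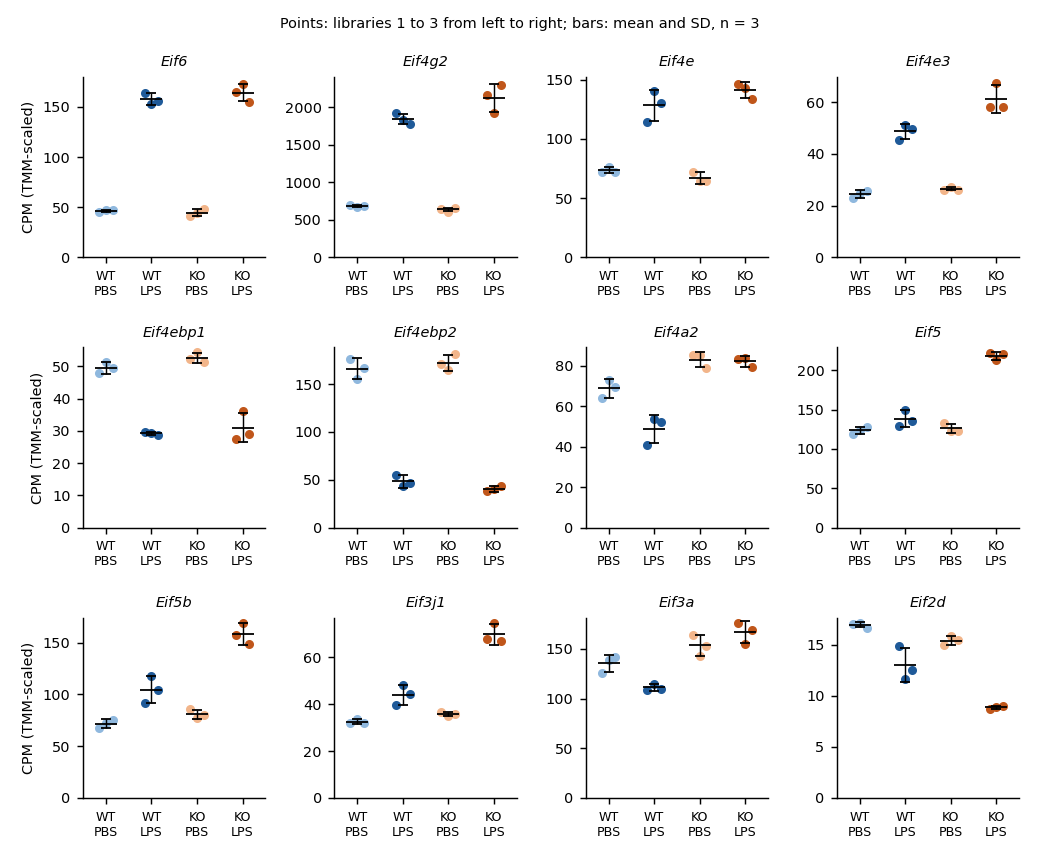
CPM with TMM scaling of 12 members in each library (points), with the mean and SD of the 3 libraries of a group. Eif4ebp2 fell from at least 155 CPM to at most 55.5 CPM with LPS while Eif6, Eif4g2, Eif4e and Eif4e3 rose, and in Eif5, Eif5b and Eif3j1 the KO LPS libraries stand above all others, though by less where a trend on GC content was removed.

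The libraries labelled KO and WT were then compared within each treatment. Among unstimulated cells the members' differences between genotype labels were small. Eif2a and Eif4a2 were higher in KO, 2 members against 12.3% of all genes, and Eif2b2, Eif3b, Eif3d, Eif3f, Eif4a1 and Eif5a were lower, 6 members against 13% of genes. The largest were Eif3b with -0.29 ± 0.0844 (SE, adjusted p = 0.0179), Eif5a with -0.29 ± 0.0564 (SE, adjusted p = 0.00142) and Eif4a2 with 0.27 ± 0.0826 (SE, adjusted p = 0.0239), and the KO and WT libraries of these genes did not overlap. Eif2b2 had -0.24, Eif4a1 -0.23, Eif3f -0.21, Eif3d -0.18 and Eif2a 0.24. A fit to only the PBS libraries gave 7 higher, against 19.5% of all genes in that fit, and 13 lower, against 20.2%. Scaling by RLE or by totals gave 3 higher and 4 lower, against 13.6% and 11.7% of all genes (RLE) and 16.5% and 10.3% (totals). The 2 higher members had transcript GC contents of 42.7% and 43.6%, and the 6 lower ones a median of 54.0%. When a trend on GC content was removed from each library, 0 members were higher (edgeR, 3 at an unadjusted p under 0.05), against 10.8% of all genes, and 11 lower, against 13.2%, of which Eif2b2, Eif3b, Eif3f, Eif4a1 and Eif5a were also lower before. Only Eif4a1 and Eif5a kept their calls whichever library was left out. The calls were lost for Eif2a without WT PBS 2 or KO PBS 1 (0.23), Eif4a2 without WT PBS 1 or 3 or KO PBS 1 or 2 (0.25 to 0.28), Eif2b2 without WT PBS 3 or KO PBS 1 (-0.21 to -0.18), Eif3b without WT PBS 1 or KO PBS 1 or 2 (-0.27 to -0.23), Eif3d without WT PBS 1, 2 or 3 or KO PBS 1, 2 or 3 (-0.19 to -0.14) and Eif3f without WT PBS 1, 2 or 3 or KO PBS 1, 2 or 3 (-0.22 to -0.15). Calls arose for Eif3a without WT LPS 1, KO PBS 2 or KO LPS 2 (0.18 to 0.25), Eif3i without WT LPS 1 or KO LPS 2 or 3 (-0.15), Eif1a without WT LPS 1 (0.13) and Eif5b without WT LPS 1 (0.17).

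Between the libraries labelled KO and WT given LPS, 14 members were higher in KO, against 22.1% of all genes, and 7 were lower, against 19.3%, shares near those of all genes. The factors of the last steps, Eif5 and Eif5b, the 3 genes of eIF2 (none of them called once a trend on GC content was removed), and Eif4a2, Eif3j1 and Eif3a were higher in KO, while Eif2d, Eif3f and the 2 genes of eIF5A were lower. These comparisons use the same LPS libraries as those of LPS with PBS. Upper-quartile scaling gave 10 higher and 8 lower, against 17.2% and 24.2% of all genes, and library totals 9 and 9, against 15.9% and 26.1%. Eif4a2 differed most (0.75 ± 0.0865 SE, adjusted p = 5.79e-06), with every KO library above every WT library, as the values above show. Eif3j1 followed with 0.67 ± 0.0722 (SE, adjusted p = 2.94e-06), Eif5 with 0.66 ± 0.0621 (SE, adjusted p = 7.81e-07), Eif5b with 0.60 ± 0.0829 (SE, adjusted p = 3.36e-05) and Eif3a with 0.59 ± 0.0693 (SE, adjusted p = 7.13e-06), all without overlap. The eIF2 genes had 0.45 ± 0.0795 (SE, adjusted p = 0.000287) for Eif2s2, 0.29 ± 0.0603 (SE, adjusted p = 0.00128) for Eif2s3x and 0.21 ± 0.0746 (SE, adjusted p = 0.0313) for Eif2s1. Eif2a (0.38), Eif4e3 (0.33), Eif3e (0.28), Eif1ax (0.25), Eif3c (0.24) and Eif4g2 (0.21) made up the rest, of which Eif1ax, Eif3e and Eif4g2 changed sign once the GC trend was removed. Eif1ax, Eif2s1, Eif3e and Eif4g2 were not called with the upper quartile or totals, nor was Eif3c with totals. On the lower side stood Eif2d with -0.55 ± 0.0942 (SE, adjusted p = 0.000218), Eif3f with -0.43 ± 0.0701 (SE, adjusted p = 0.000149), Eif5a2 with -0.34 ± 0.125 (SE, adjusted p = 0.0359) and Eif5a with -0.32 ± 0.0565 (SE, adjusted p = 0.00028), followed by Eif4ebp2 (-0.25), Eif3k (-0.25) and Eif3i (-0.19).

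The members that were higher in KO LPS had transcripts poor in GC. Their median GC content was 43.0% (39.7% to 49.6%), against 52.9% (38.8% to 54.5%) for the 7 lower members and 51.5% for the 28 not called. With the GC trend removed, 14 members were higher and 4 lower, against 19.0% and 18.5% of all genes, but only 7 and 4 of these were called the same way without the correction. They were Eif2a, Eif3a, Eif3c, Eif3j1, Eif4a2, Eif5 and Eif5b as higher and Eif2d, Eif3f, Eif5a and Eif5a2 as lower. Corrected values were 0.49 for Eif4a2, 0.41 for Eif3j1, 0.36 for Eif5, 0.38 for Eif5b, 0.40 for Eif3a, -0.46 for Eif2d and -0.73 for Eif5a2. The corrected values of Eif1ax, Eif2s1, Eif3e and Eif4g2 turned to the other sign (-0.10, -0.10, -0.054 and -0.034), and those of Eif2s2 (0.16) and Eif2s3x (0.069) were not called. Muscle markers were near 0 in KO LPS and not in WT LPS, and their part in these differences was not tested. Leaving out a library ended the calls of Eif1ax without WT LPS 1 or KO LPS 1 or 2 (0.18 to 0.23), Eif2s1 without WT PBS 1, WT LPS 1, KO PBS 1 or 2 or KO LPS 2 or 3 (0.12 to 0.21), Eif4g2 without WT LPS 3 or KO LPS 1 or 3 (0.15 to 0.20), Eif3i without WT LPS 3 or KO LPS 1 or 3 (-0.19 to -0.14), Eif3k without KO LPS 3 (-0.18), Eif4ebp2 without WT LPS 1 or KO LPS 1 or 2 (-0.24 to -0.14) and Eif5a2 without WT LPS 1 or 2 or KO LPS 1, 2 or 3 (-0.35 to -0.30). New calls arose for Eif2b1 without KO LPS 3 (0.25), Eif3b without WT LPS 2 or KO LPS 3 (-0.26 to -0.25), Eif3d without WT LPS 1 (0.16), Eif3m without WT LPS 2 (0.19) and Eif4e without WT LPS 2 (0.21).

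**Figure D4:**
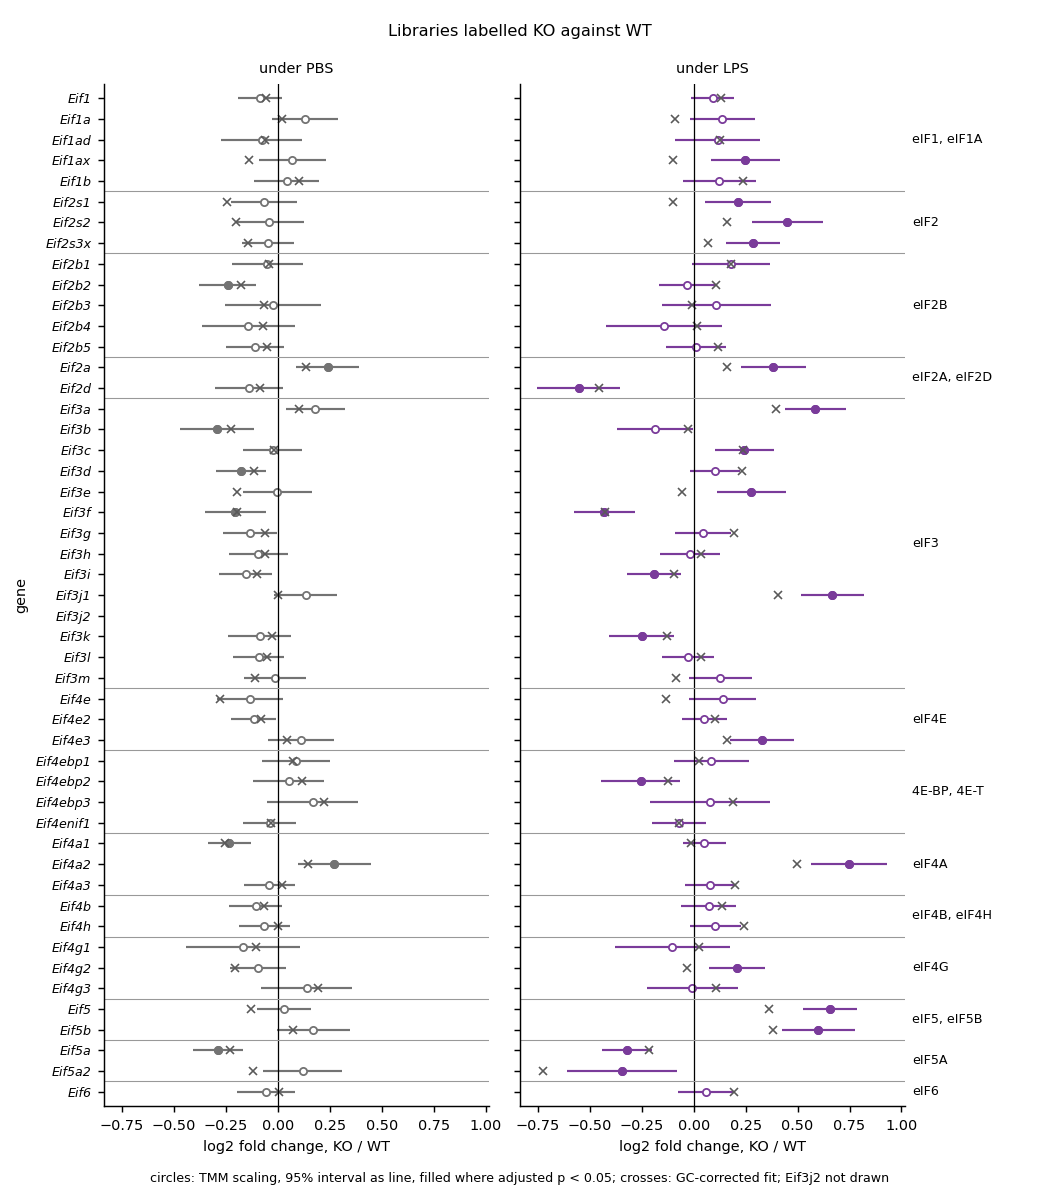
Log2 fold change of libraries labelled KO against WT for each tested member, under PBS (left) and LPS (right), with TMM scaling (circles with 95% intervals, filled where the adjusted p was under 0.05) and after removal of a GC trend (crosses). Under LPS, Eif4a2, Eif3j1, Eif5, Eif5b and Eif3a stay to the right and Eif2d, Eif3f, Eif5a and Eif5a2 to the left in each fit, whereas Eif1ax, Eif2s1, Eif3e and Eif4g2 change sides.

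The LPS response itself differed between the genotype labels for 12 members, tested as the interaction of label and treatment. The difference of the log2 responses (KO minus WT) was above 0 for 10 members, against 9.78% of all genes, and below 0 for 2, against 8.26%. Library totals gave 3 and 4, against 5.20% and 16.1% of all genes, upper-quartile scaling 10 and 4, against 7.73% and 10.2%, and removal of the GC trend 11 and 2, against 9.58% and 8.77%. That removal ended the calls of Eif2s3x (0.21) and Eif4g2 (0.17) and added Eif1 (0.19), Eif2b2 (0.28) and Eif4h (0.24). With TMM scaling Eif5 had the largest difference of responses, 0.63 ± 0.0873 (SE, adjusted p = 0.000148), with a response of 0.79 in KO and 0.16 in WT. With totals or with the GC trend removed, that of Eif5a2, below 0, was larger in size. Eif3j1 had 0.53 ± 0.102 (SE, adjusted p = 0.00181), Eif2s2 0.49 ± 0.112 (SE, adjusted p = 0.00639) and Eif4a2 0.48 ± 0.119 (SE, adjusted p = 0.0117). For Eif4a2 this is a fall in WT (-0.49) beside -0.015, not called, in KO, and for Eif3a likewise -0.28 beside 0.12. Both were called lower in each label, by less in KO, with totals and the upper quartile. Eif5b (0.43), Eif3a (0.41), Eif2s3x (0.33), Eif4g2 (0.30), Eif4a1 (0.29) and Eif3d (0.28) were the others above 0. Eif5a2 (-0.46 ± 0.153 SE, adjusted p = 0.0462) and Eif2d (-0.41 ± 0.121 SE, adjusted p = 0.0267) fell further in KO. With a replicate block in the model, Eif5a2 was not called. Eif2s2, Eif3j1 and Eif5 above 0 and Eif2d and Eif5a2 below 0 were called under all 4 scalings. Eif5, Eif3j1, Eif2s2, Eif4a2, Eif3a and Eif4a1 kept their calls whichever library was left out. The call was lost for Eif5b without WT PBS 3 or KO PBS 2 or 3 (0.36 to 0.39), Eif2s3x without WT PBS 1 or KO PBS 2 or 3 (0.29 to 0.30), Eif3d without WT PBS 1, 2 or 3, WT LPS 2 or 3 or KO PBS 1 or 2 (0.24 to 0.29), Eif4g2 without WT PBS 1, 2 or 3, WT LPS 3, KO PBS 1 or 2 or KO LPS 1 or 3 (0.24 to 0.31), Eif2d without WT PBS 3, WT LPS 1 or KO LPS 1 (-0.40 to -0.31) and Eif5a2 without WT PBS 2 or 3, WT LPS 1 or 2, KO PBS 1 or 2 or KO LPS 1, 2 or 3 (-0.51 to -0.42). Calls arose for Eif1 without WT LPS 1 (0.19), Eif2s1 without WT LPS 2 (0.33), Eif3b without WT LPS 1 (0.24), Eif3c without WT LPS 1 or KO LPS 2 (0.30 to 0.33), Eif4b without WT LPS 1 (0.23), Eif4e without WT LPS 2 (0.34) and Eif4ebp2 without WT LPS 2 (-0.38).

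Shares within paralog families do not depend on the scaling between libraries, though their size depends on the transcript length by which counts are divided (median annotated length here). Eif4a2 made up 6.38% ± 0.383 (SD, n = 3) of Eif4a1 plus Eif4a2 in WT PBS, 4.21% ± 0.539 in WT LPS, 8.83% ± 0.151 in KO PBS and 6.66% ± 0.257 in KO LPS. Thus the share was lower with LPS in each genotype label and higher in KO with each treatment, and no libraries overlapped in these 4 comparisons. Eif1b made up 14.8% ± 0.639, 6.96% ± 0.547, 16% ± 0.664 and 7.10% ± 0.351 of Eif1 plus Eif1b in the same order of groups. Eif5a2 made up 0.403% ± 0.0285, 0.182% ± 0.0205, 0.534% ± 0.0337 and 0.178% ± 0.00953 of the eIF5A genes. These shares separated LPS from PBS libraries without overlap. Among the 4E-BPs, the share of Eif4ebp2 was 59.3% ± 2.12 in WT PBS, 40.6% ± 2.29 in WT LPS, 58.5% ± 1.73 in KO PBS and 35.3% ± 3.22 in KO LPS, with Eif4ebp1 taking 32% ± 2.06, 44.5% ± 3.12, 32.3% ± 1.58 and 48.4% ± 3.34. Within the cap-binding family, Eif4e held 70.2% ± 0.617, 70.9% ± 2.18, 69% ± 1.48 and 71% ± 1.22, and Eif4e3 7.38% ± 0.406, 8.51% ± 0.129, 8.63% ± 0.528 and 9.70% ± 0.742. Eif1ax held 8.57% ± 0.0571, 6.68% ± 0.372, 8.26% ± 0.171 and 7.15% ± 0.616 of the eIF1A genes, and Eif4g3 20.2% ± 0.0940, 22.5% ± 1.03, 23.9% ± 0.378 and 23.7% ± 0.896 of Eif4g1 plus Eif4g3. With the longest annotated transcript as length, Eif4e held 36.9%, 36.9%, 35.1% and 36.3% of the cap-binding family in the same order of groups, Eif4e2 38.6%, 35.1%, 37.2% and 32.4% and Eif4e3 24.5%, 27.9%, 27.6% and 31.2%, so the order within that family depends on the length used. The shares are given as a description, with no test.

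**Figure D5:**
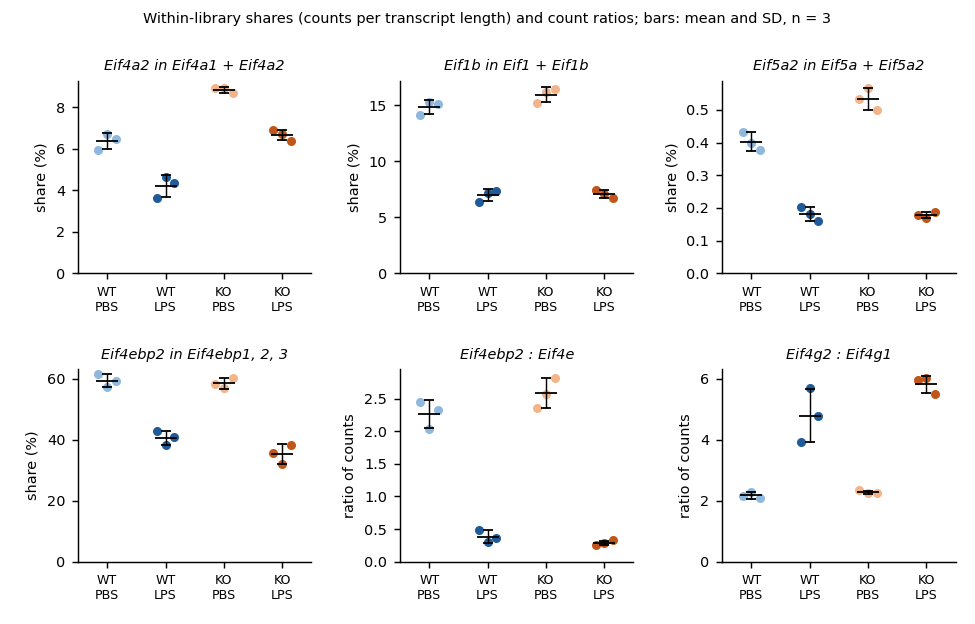
Shares of a paralog within its family (percent of counts per transcript length) and ratios of counts between members, per library (points), with the mean and SD of 3 libraries. The Eif4ebp2 to Eif4e ratio lies between 2.03 and 2.82 in PBS libraries and between 0.259 and 0.488 in LPS libraries, and the Eif4a2 share is lowest in WT LPS and highest in KO PBS.

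Levels between genes were compared only per transcript length (CPM per kb of median transcript length). In WT PBS, Eif4a1 led with 457 ± 2.53 CPM per kb (SD, n = 3), followed by Eif5a (367 ± 3.82), Eif1 (139 ± 1.78), Eif4g2 (118 ± 1.52) and Eif3k (108 ± 4.78). In WT LPS the order was Eif5a (532 ± 25.4), Eif4a1 (504 ± 11.3), Eif4g2 (319.8 ± 12), Eif1 (242 ± 3.58) and Eif4e (162 ± 16.8), where the ranges of mean ± SD of the first 2 overlap. With the longest transcript as length, Eif4e had 25.7 CPM per kb there and Eif4a1 (504) stood before Eif5a (475), so these places depend on the length used. With that length Eif1 (242) also passed Eif4g2 (231) in WT LPS, and in WT PBS Eif3h (99.7) and Eif3k (91.9) passed Eif4g2 (85.5). By median length, KO PBS had the order of WT PBS, from Eif4a1 (389 ± 10.1) to Eif3k (102 ± 6.18). KO LPS libraries were led by Eif4a1 (523 ± 8.47), Eif5a (426 ± 25.4) and Eif4g2 (369 ± 32.2). Eif6 moved from rank 24 of 50 in WT PBS (32.2 ± 0.777) to rank 7 in WT LPS (109.5 ± 4.01), and from 26 to 7 in KO. Eif4ebp2 went from rank 18 (46.1 ± 2.97) to 36 (13.4 ± 1.79) in WT and from 16 to 40 in KO. Eif5a2, Eif3j2 and Eif4e1b held ranks 48, 49 and 50 in each group.

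Some genes that act on these factors or beside them changed by more with LPS than any of the factors. Of 6 genes that encode eIF2 kinases and the targeting subunits of the eIF2 phosphatase, 3 were higher and 2 lower with LPS in each genotype label, against 36.5% and 40.2% of all genes in WT and 38.8% and 41.1% in KO. Eif2ak2, the double-stranded RNA kinase PKR, rose from 18.2 to 177 CPM in WT (3.28 ± 0.0821 SE, adjusted p = 7.7e-16) and from 17 to 275 CPM in KO (4.01 ± 0.084 SE, adjusted p = 6.12e-17). Eif2ak3, the kinase PERK of the endoplasmic reticulum, fell (-2.81 ± 0.106 SE, adjusted p = 1.76e-13 in WT and -3.42 ± 0.114 SE, adjusted p = 2.81e-14 in KO). So did the amino acid sensor Eif2ak4, known as GCN2 (-1.94 and -2.13). Both phosphatase subunits were higher, Ppp1r15b by 2.64 and 2.62 and the stress-induced Ppp1r15a by 0.88 and 1.39. Among 13 regulators and partners of eIF4F, 5 were higher and 7 lower in each. Mknk2, a kinase that phosphorylates eIF4E, fell from 282 to 11.4 CPM in WT (-4.62 ± 0.0868 SE, adjusted p = 2.33e-17) and likewise in KO (-5.14 ± 0.0911 SE, adjusted p = 8.77e-18). Its relative Mknk1 fell as well (-1.31 and -1.71). Pdcd4, an inhibitor of eIF4A, fell (-3.68 ± 0.255 SE, adjusted p = 7.6e-10 and -3.41 ± 0.234 SE, adjusted p = 5.88e-10) from a level of 2.99 and 3.55 CPM. Larp1, which binds mRNAs with a 5′ terminal oligopyrimidine tract, rose by 3.0 ± 0.0812 (SE, adjusted p = 2.03e-15) and 3.17 ± 0.0818 (SE, adjusted p = 9.22e-16). The poly(A)-binding protein gene Pabpc1 rose by 1.45 and 1.75, and Paip2b, an inhibitor of that protein, fell (-1.64 and -1.59).

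Of 11 other initiation and recycling factors, 3 were higher and 3 lower in WT and 6 and 1 in KO, beside 36.5% and 40.2% of all genes higher and lower in WT and 38.8% and 41.1% in KO. Denr, a partner of Mcts1 in reinitiation, rose by 1.52 ± 0.089 (SE, adjusted p = 7.66e-11) in WT and 2.22 ± 0.0889 (SE, adjusted p = 3.49e-13) in KO, a difference of responses of 0.70 ± 0.124 (SE, adjusted p = 0.00104). Dhps, which encodes 1 of the enzymes that form the hypusine of eIF5A, was higher by 0.92 and 1.09. Of 10 elongation and release factors, 5 were higher and 2 lower in WT and 5 and 3 in KO, beside the same shares of all genes. Eef2k, the kinase that blocks elongation factor eEF2, fell (-3.58 ± 0.19 SE, adjusted p = 2.12e-11 and -3.43 ± 0.189 SE, adjusted p = 2.81e-11). Gspt2 fell (-2.76 and -2.16), while its paralog Gspt1, which encodes the release factor eRF3a, was higher by 0.87 and 1.13. Etf1, which encodes eRF1, was higher by 0.79 and 1.26, and Eef1e1, a component of the multi-tRNA synthetase complex, by 1.24 and 1.65. Each gene named in this account of the neighbouring pathways kept its sign with LPS under all 4 scalings. Between genotype labels under LPS, where 22.1% of all genes were higher and 19.3% lower in KO, 2 of the 6 kinase and phosphatase genes were higher and 1 lower, 3 and 3 of the 13 eIF4F regulators, 3 and 2 of the 10 elongation and release factors, and 6 of the 11 other initiation factors were higher. The values in these lists ran from -0.49 (Eif2ak3) to 0.71 (Denr). With a GC trend removed, where 19.0% of all genes were higher and 18.5% lower, 2 kinase and phosphatase genes were higher, 1 eIF4F regulator was higher and 4 lower, 2 elongation and release factors were higher and 1 lower, and 4 of the other initiation factors were higher and 1 lower.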

How the data were processed

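RNA from the 12 libraries was sequenced with single-end 50-base reads on a BGISEQ-500. The deposited values are expected counts per gene, which the authors had not scaled between libraries. The submitters' processing notes name Bowtie2, RSEM 1.3.1 and GRCm38.p6, whereas the study's methods name STAR and HTSeq. The values carry decimals and were rounded to whole counts.

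Counts were fitted with edgeR 4.0.16 (limma 3.58.1, R 4.3.3). Genes were filtered with filterByExpr, which left 12064, and scaled by TMM. A single robust quasi-likelihood model with 1 mean per group covered all 12 libraries (biological coefficient of variation 6.99%). P-values were two-sided and adjusted over all genes tested by the Benjamini-Hochberg method, with a threshold of 0.05. As alternatives, scaling was changed to RLE, upper quartile or library totals, and the filter was dropped or set to 10 counts in each library. DESeq2 1.42.0, models of the compared libraries alone, a replicate block and fits without each library in turn were also run. Removal of a lowess trend on GC content (span 0.3, known for 96.3% of genes) and the longest transcript as length were added after seeing the data. The complexes, pathway lists and markers were chosen with earlier results of these data known.

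Values per library were printed for members past the threshold with a log2 change over 1 with LPS, over 0.5 between genotype labels, for members past the threshold in the interaction whatever the size, and for paralogs. The other values per library (Eif2a) were chosen after their values were seen. Pathway genes were named when past the threshold with a log2 change over 1. Positions, promoter windows and lengths come from RefSeq and GENCODE on GRCm38, matched by gene number for 50 of 50 members. Floors cover counting error only, and 3 counts were 0.105 to 0.187 CPM.

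The fit was tested on simulated data in which 200 genes were changed and 11590 genes were fitted. It recovered 71% of changes of 0.5 and 89% of changes of 1 (log2) in LPS against PBS in WT and 49% and 84% in the interaction, and called 0.0702% of unchanged genes. The GC correction took calls from 4916 to 0 where only a GC trend had been simulated.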

Additional observations from a re-analysis of the deposited data

Results flagged for a closer look

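The LPS response differed between the genotype labels for 12 initiation factor mRNAs, by the interaction term of the edgeR model at an adjusted p under 0.05, with 10 differences above 0, against 9.78% of all genes, and 2 below 0, against 8.26%. The difference of the log2 responses (KO minus WT) was 0.63 for Eif5, 0.53 for Eif3j1, 0.49 for Eif2s2, 0.48 for Eif4a2, 0.43 for Eif5b, 0.41 for Eif3a, 0.33 for Eif2s3x, 0.30 for Eif4g2, 0.29 for Eif4a1 and 0.28 for Eif3d. It was -0.41 for Eif2d and -0.46 for Eif5a2, whose levels fell further in the libraries labelled KO. After removal of a GC trend the values were 0.49 for Eif5, 0.40 for Eif3j1, 0.36 for Eif2s2, -0.37 for Eif2d and -0.61 for Eif5a2, all called, and 0.21 for Eif2s3x and 0.17 for Eif4g2, not called. The 10 members with a positive difference had a median transcript GC content of 43.5%, the 2 with a negative one 45.8%, and the 37 not called 51.3%. These medians were not compared with those of all genes. Ythdf1 counts were not lower in the libraries labelled KO, so these are differences between the labels.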

How the results depend on the processing

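The direction of many LPS responses followed the scaling. With library totals alone, log2 changes with the opposite sign to TMM were, in WT, Eif1ad -0.49, Eif1ax -0.23, Eif2a -0.44, Eif2b2 -0.17, Eif2b3 -0.61, Eif2b5 -0.54, Eif2s1 -0.0036, Eif2s2 -0.26, Eif2s3x -0.40, Eif3c -0.19, Eif3d -0.088, Eif3e -0.20, Eif3f -0.48, Eif3g -0.22, Eif3h -0.35, Eif3i -0.43, Eif3j1 -0.23, Eif3l -0.62, Eif3m -0.34, Eif4a1 -0.52, Eif4a3 -0.17, Eif4e2 -0.0027, Eif4enif1 -0.17, Eif4g1 -0.34, Eif4g3 -0.15, Eif4h -0.14, Eif5 -0.50, Eif5a -0.13 and Eif5b -0.12, and in KO, Eif1ad -0.43, Eif1ax -0.19, Eif2a -0.44, Eif2b1 -0.68, Eif2b2 -0.094, Eif2b3 -0.61, Eif2b5 -0.56, Eif2s3x -0.20, Eif3a -0.68, Eif3c -0.059, Eif3e -0.062, Eif3g -0.18, Eif3h -0.41, Eif3i -0.61, Eif3l -0.69, Eif3m -0.33, Eif4a1 -0.37, Eif4a3 -0.19, Eif4enif1 -0.34, Eif4g1 -0.41, Eif4g3 -0.43, Eif4h -0.11, Eif5 -0.014 and Eif5a -0.30. Upper-quartile scaling turned, in WT, Eif2a -0.085, Eif2b5 -0.19, Eif2s3x -0.046, Eif3f -0.12, Eif3i -0.079, Eif3l -0.26, Eif4a1 -0.17 and Eif5 -0.15, and in KO, Eif2b1 -0.23, Eif2b5 -0.11, Eif3a -0.24, Eif3i -0.16 and Eif3l -0.24. Removal of the GC trend turned Eif1ax -0.10, Eif2s1 -0.10, Eif3e -0.054 and Eif4g2 -0.034 between genotype labels under LPS, and Eif5 -0.13 under PBS. In each of these the value had been called in at least 1 of the fits, and a further 135 changes of sign concerned values called in neither fit.

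Members higher and lower with LPS in WT (31 and 10) became 16 and 17 with upper-quartile scaling and 4 and 36 with totals. In KO (32 and 9) the lower ones became 16 with upper-quartile scaling, and totals gave 5 and 31. Between genotype labels under PBS (2 and 6), a fit to only the libraries compared gave 7 and 13 and the GC correction 0 and 11 (edgeR, with 3 higher at an unadjusted p under 0.05). Under LPS (14 and 7), totals gave 9 higher, the fit to only the libraries compared 11 higher and 4 lower, against 18.2% and 16.7% of all genes in that fit, and the GC correction 4 lower. In the interaction (10 and 2), totals gave 3 and 4 and upper-quartile scaling 4 lower. No filter on low counts, DESeq2 and the replicate block gave 1 lower each, against 5.46%, 9.98% and 7.97% of all genes in those fits. The correlations of same-numbered deviations ran from -0.0758 to 0.127. For LPS against PBS in KO they were 0.0143 to 0.0462, above those with other numbers (at most -0.00309). In the other comparisons the order was mixed. Whether replicate numbers pair the libraries cannot be told from these correlations. The replicate block gave 32 members higher with LPS in WT, against 36.6% of all genes, where 31 were without it, against 36.5%. The added member was Eif1ad (0.17). The block also ended the interaction call of Eif5a2 (-0.46) and changed no other call of a member. Leaving out 1 library gave 29 to 31 higher and 10 to 11 lower with LPS in WT and 32 to 33 and 8 to 9 in KO, 0 to 5 higher and 2 to 7 lower between genotype labels under PBS, 12 to 16 and 4 to 7 under LPS, and 6 to 14 and 0 to 2 in the interaction. The shares of all genes called in the fits without a library were not computed, so these counts cannot be set against them. The count of higher members under PBS was 0 without KO PBS 1 (2 at an unadjusted p under 0.05), 1 without WT PBS 1, 2 or 3 and 5 without WT LPS 1, and that of lower members 2 without KO PBS 1 and 3 without WT PBS 1, WT PBS 3 or KO PBS 2. In the interaction, higher members were 6 without KO PBS 2, and lower ones 0 without WT PBS 3, WT LPS 1 or KO LPS 1 (3, 2 and 2 at an unadjusted p under 0.05) and 1 without WT PBS 2, KO PBS 1, KO PBS 2, KO LPS 2 or KO LPS 3. Under LPS the lower members were 4 without KO LPS 1.

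In all, 4749 of 5091 recomputed values of single members kept their side of the threshold with no called change of direction, and these include the 135 changes of sign called in neither fit. Of 240 recomputed shares of paralogs, 86 moved by more than their SD, all through the transcript length used or its omission. The cause of these shifts was not tested. In groups of this size, leaving out a library cannot shift the mean share by as much as the SD. Shares recomputed without a library therefore could not count as moved, whatever their values. So 86 of 240 is not a rate of moved shares, and the steadiness of the shares between libraries was not tested. Eif4e1b (0 to 10.09 counts) was tested only with no filter on low counts, and Eif3j2, with 0 to 43.45 counts within WT LPS, gave no measure of a change.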
